A study of Mus musculus with 14 samples.

Results

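Satellite cells labelled FoscKO, read here as a conditional knockout of Fos, were compared with control satellite cells in 6 of the series' 14 RNA-seq libraries, the 3 labelled FoscKO and the 3 labelled Control, across every gene of their count table. The cells came straight from resting muscle (hind-limbs, triceps and pectoral) of C57BL/6J mice aged 6 months, with 1000 cells per library. They were sorted as CXCR4+ and B1-Integrin+ cells lacking Sca1, Ter119, CD31, CD45 and CD11b. Both groups are described as FosGFP+ in the series text, which gives 3 mice without tying a library to a mouse. The labels name no treatment. The Cre driver, the deleted part of Fos and the time of deletion are not given in the sources used here, so the FoscKO group is known only by its label. Because separate animals are not stated for each library, p-values measure only the spread between these libraries.

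Satellite cells are the stem cells of skeletal muscle, which rest between the fibre and its basal lamina and enter a myogenic programme after injury. Fos encodes a leucine-zipper protein that pairs with a JUN protein to form AP-1, a transcription factor that binds the heptamer TGAGTCA, which reads TGACTCA on the other strand. Fos is an immediate early gene: its RNA rises within minutes of a stimulus, tissue dissociation included. FOSB, FRA1 (gene Fosl1) and FRA2 (gene Fosl2) can take the place of FOS beside JUN, JUNB or JUND.

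One library stood apart from the others. FoscKO replicate 1 had 30.2% of its reads in genes, against 15.9% to 22.7% in the other 5 libraries, and a count in 31483 genes, against 35928 to 37048. The first principal component of log2 CPM over 13852 genes of at least 5 CPM carried 53.4% of the variance and placed this library at -96.3, with the other 5 between -7.91 and 36.5. The median SD of log2 CPM per gene was 0.46 in FoscKO and 0.29 in Control, and 0.31 in FoscKO without replicate 1. Counts in genes ran from 4797954 to 10241655 per library. The share of reads in genes was 22.9% ± 7.16 in FoscKO and 18.2% ± 1.15 in Control (SD, n = 3; two-sided exact permutation p = 0.4, where 0.1 is the smallest possible). Main results are therefore given with all libraries and without FoscKO replicate 1. CPM here means counts scaled to a common library size, in the usual CPM unit, with TMM factors. The TMM factor was 0.73 in FoscKO replicate 1 and 0.975 to 1.14 in the other 5 libraries. With it, the CPM of all genes tested summed to 1363000 in FoscKO replicate 1 and to 869100 to 1016000 in the other 5. Levels and sums in FoscKO replicate 1 are thus higher than on plain library size.

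Satellite cell markers were present in every library. Pax7, the transcription factor that defines the lineage, was at 70.0, 31.7 and 54.3 CPM in FoscKO replicates 1, 2 and 3 and at 54.3, 64.3 and 54.8 CPM in Control replicates 1, 2 and 3, the order kept for all values below. The adhesion molecules Cdh15 (722, 329 and 643 CPM in FoscKO, 372, 354 and 349 CPM in Control) and Vcam1 (1181, 823 and 917 CPM in FoscKO, 1735, 1392 and 1123 CPM in Control) were also present in all 6. Of the genes whose proteins the gate excluded, Itgam had 0 to 16 counts and Ly6a 0 to 4 counts per library, while Ptprc (CD45) had 135 to 299 counts and Pecam1 (CD31) 29 to 117 counts.

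The RNA of the targeted gene did not separate the groups. Fos (ENSMUSG00000021250, chr12:85473890-85477273, + strand in GRCm38) was at 8357, 2847 and 3766 CPM in FoscKO and at 4992, 4974 and 4685 CPM in Control. The groups overlapped: FoscKO replicate 1 was the highest of all 6 libraries, and FoscKO replicates 2 and 3 were the lowest. The log2 difference was 0.03 ± 0.39 (SE; edgeR adjusted p = 0.996). Without FoscKO replicate 1 it was -0.56 ± 0.20, which missed the threshold too (edgeR adjusted p = 0.708). Counts per gene do not show which exons were read, so the level of Fos RNA checks neither the deletion nor the loss of FOS protein, and the groups are named by their labels throughout.

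Among the other AP-1 subunit genes, Fosl1 was lower in FoscKO, while the 3 JUN genes were highest in FoscKO replicate 1. Fosl1 (ENSMUSG00000024912, chr19:5447547-5455946, + strand) was at 261, 174 and 178 CPM in FoscKO and at 846, 664 and 586 CPM in Control. Every FoscKO library was below every Control library. The difference was -1.77 ± 0.29 on the log2 scale (SE; edgeR adjusted p = 0.0918), and -1.99 without FoscKO replicate 1. DESeq2 and the authors' deposited table both called Fosl1 lower. Fosb, at 1291, 633 and 664 CPM in FoscKO and 915, 704 and 734 CPM in Control, and Fosl2, at 649.6, 315 and 410.0 CPM in FoscKO and 287, 340.3 and 296 CPM in Control, overlapped between the groups.

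Jun was at 8002, 3065 and 3356 CPM in FoscKO and at 2601, 2481 and 2259 CPM in Control, a log2 difference of 0.97 ± 0.38 (SE), and of 0.39 without FoscKO replicate 1. Junb gave 0.86 ± 0.40 and 0.24, and Jund 0.87 ± 0.39 and 0.20, in the same order. For Jun every FoscKO library was above every Control library, while Junb and Jund overlapped between the groups. FoscKO replicate 1 held the highest level of all 3 JUN genes, and none of them passed the adjusted threshold, though all 3 had an unadjusted p under 0.05, as 1 of the 4 FOS and FOSL genes did. Jdp2, which encodes a bZIP repressor that also pairs with JUN, was at 445, 191 and 189 CPM in FoscKO and 113, 75 and 101 CPM in Control and was called higher by DESeq2 and in the authors' deposited table. Its log2 difference went from 1.51 ± 0.34 (SE) to 0.98 without FoscKO replicate 1.

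**Figure D1:**
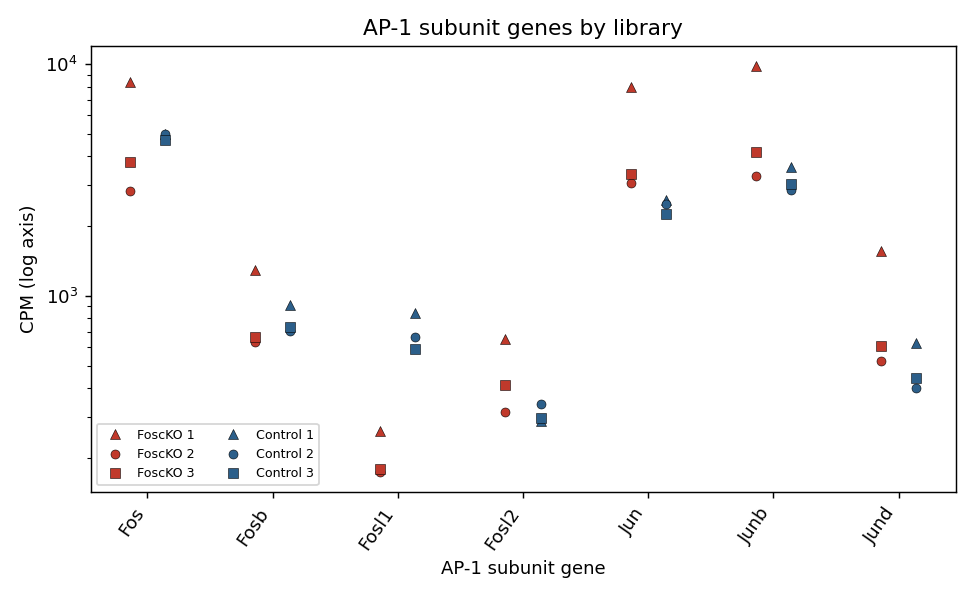
Level of each AP-1 subunit gene (x axis) in CPM on a log axis (y axis), 1 point per library, red for FoscKO, blue for Control, with triangles, circles and squares for replicates 1, 2 and 3. For Fosl1 all red points (174 to 261 CPM) lie below all blue points (586 to 846 CPM), and for the other 6 genes the highest point is FoscKO replicate 1.

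Across all genes, the edgeR quasi-likelihood test called none of 21885 genes at an adjusted p under 0.05, 0% of those tested, and the smallest adjusted p was 0.0801. At an unadjusted p under 0.05, 779 genes were higher in FoscKO (3.56% of those tested) and 429 lower (1.96%). At an edgeR adjusted p under 0.1 stood 20 genes, 9 higher and 11 lower. Every FoscKO library lay above every Control library for 1258 genes (5.75%) and below for 1416 (6.47%). DESeq2 on the same counts called 59 genes higher (0.27%) and 34 lower (0.155%). Without FoscKO replicate 1, edgeR called 16 genes higher (0.0689% of 23223) and 27 lower (0.116%), and 33 of these 43 were also DESeq2 calls with all libraries. The authors' deposited table lists 42 genes higher (0.264% of the 15888 genes that its p-values imply were tested) and 27 lower (0.17%). All 69 of its genes had the same sign in the edgeR fit, which reads the same libraries, and 68 of them did not overlap between groups.

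The 10 genes of smallest p in the lower direction did not overlap between groups, were called lower by DESeq2 and stand in the authors' deposited table. All of these read the libraries that gave the p-values, so they are not separate support. Emp1 (ENSMUSG00000030208, chr6:135362545-135383173, + strand), a membrane protein of the PMP22 family, was at 389.9, 334 and 444 CPM in FoscKO and at 1894, 1620.0 and 1437 CPM in Control. The difference was -2.08 ± 0.29 on the log2 scale (SE; edgeR adjusted p = 0.0801), and -2.08 without FoscKO replicate 1. Asb5 (ENSMUSG00000031519, chr8:54529580-54587842, + strand), a SOCS-box protein that selects targets for ubiquitin ligases, was at 183, 231 and 253 CPM in FoscKO and at 856, 799 and 647 CPM in Control. FoscKO replicate 1 was the lowest library for Asb5, and the difference was -1.79 ± 0.27 (SE; edgeR adjusted p = 0.0824).

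Receptors and membrane proteins followed. Il1r1, the signalling receptor of interleukin-1, was at 51.5, 50.2 and 48.6 CPM in FoscKO and at 114, 134 and 134 CPM in Control, with the 3 FoscKO libraries within 3 CPM of each other (-1.35 ± 0.23, SE). Slc22a4, a transporter of ergothioneine, was at 6.28, 11.3 and 8.57 CPM in FoscKO and at 37.1, 28.2 and 35.2 CPM in Control (-1.95 ± 0.35, SE). Sgms2, a sphingomyelin synthase, was at 151, 167 and 148 CPM in FoscKO and at 458, 371 and 376 CPM in Control (-1.37 ± 0.25, SE). Rtn4, the reticulon also known as Nogo that shapes endoplasmic reticulum tubules, was at 89.7, 90.2 and 143 CPM in FoscKO and at 255, 395 and 323 CPM in Control (-1.59 ± 0.29, SE).

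Of the remaining lower genes of smallest p, Ankrd28 encodes a phosphatase subunit, Tuba1c an alpha-tubulin whose near-identical copies make its counts uncertain, and Tcim a small regulator of Wnt signalling. Ankrd28 was at 60.0, 58.8 and 63.1 CPM in FoscKO and 200.4, 139 and 144 CPM in Control. Tuba1c was at 33.8, 20.1 and 23.3 CPM and 94.5, 62.1 and 74.5 CPM, and Tcim at 133, 101 and 105 CPM and 321, 301 and 252 CPM. The log2 differences were -1.41 ± 0.25, -1.58 ± 0.29 and -1.37 ± 0.25 (SE). Over the 10 genes, the differences ran from -1.35 to -2.08, and from -1.35 to -2.08 without FoscKO replicate 1, where edgeR called 9 of them, all but Slc22a4. FoscKO replicate 1 was the highest of the 3 FoscKO libraries for 4 of the 10.

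A pair of regulators of myogenic and chromatin state had slightly larger p and were called lower by DESeq2 and in the authors' deposited table. Myod1 (ENSMUSG00000009471, chr7:46376474-46379099, + strand), the transcription factor that commits satellite cells to the muscle lineage, was at 523, 393 and 447 CPM in FoscKO and at 1720.2, 1104 and 1121 CPM in Control. The difference was -1.53 ± 0.30 (SE; edgeR adjusted p = 0.118), and -1.65 without FoscKO replicate 1. Hmga1, an architectural chromatin protein, was at 5.35, 3.5 and 3.69 CPM in FoscKO and at 26, 17.6 and 17.4 CPM in Control (-2.27 ± 0.43, SE). Neither gene's groups overlapped, and Hmga1 has near-identical copies, so its counts are uncertain. Other genes of the authors' lower list, picked here after their values were seen, were the sialidase gene Neu2 (-1.60 in the edgeR fit), the transcription factor genes Ets1 (-1.29) and Sox9 (-1.52), the retinol dehydrogenase gene Rdh10 (-1.43) and the chemokine gene Cxcl3 (-1.62).

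AP-1 heptamers before the start sites of lead genes are shown because they are the motif through which AP-1 is known to act. Promoters were RefSeq windows of 250 bases before to 50 after each start in GRCm38.p6, and TGAGTCA and TGACTCA, the same motif on opposite strands, were searched, and no other motif. Of the 10 lower genes, 8 had a promoter in the table and 3 of these held the motif, in 4 of their 19 promoters (21.1%). Of the 10 higher genes of smallest p described next, 7 had a promoter, 1 each, and 3 held it (42.9%). Over all genes tested it stood in 778 of 17693 promoters (4.4%), and over the whole table in 1709 of 32851 (5.2%). In the authors' deposited lists it stood in 5 of 33 promoters of lower genes (15.2%) and in 4 of 37 of higher genes (10.8%). Those lists include all 10 lower and all 10 higher genes, so these shares count the same matches again. Of the matching promoters, 4 of the 5 and 3 of the 4 are those of the 10 lower and 10 higher genes. The lead genes with a match were Emp1, Sgms2 and Rtn4 on the lower side and Lif, Cxcl10 and Gbp2 on the higher side. The Rtn4 match lies 15 bases after the start. The Gbp2 match, 102 bases before the start, and a further Sgms2 match, 176 before, have windows that overlap annotated exons. Those matches are not printed. Matches describe these letters only. Those printed lie 145 bases before the start in Emp1, 139 in Sgms2, 228 in Lif and 74 in Cxcl10, with capitals marking the heptamer. The printed windows of Emp1 and Sgms2 lie inside the annotated gene but in none of its exons, and those of Lif and Cxcl10 lie before the gene.
Emp1 promoter, chr6:135362740-135362838, + strand: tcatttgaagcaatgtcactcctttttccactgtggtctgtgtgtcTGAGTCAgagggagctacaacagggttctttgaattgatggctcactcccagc
Sgms2 promoter, chr3:131490747-131490845, - strand: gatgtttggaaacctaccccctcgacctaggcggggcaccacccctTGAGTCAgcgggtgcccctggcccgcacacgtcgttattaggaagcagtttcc
Lif promoter, chr11:4257318-4257392, + strand: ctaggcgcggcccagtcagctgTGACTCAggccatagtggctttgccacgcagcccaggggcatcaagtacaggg
Cxcl10 promoter, chr5:92348911-92349009, - strand: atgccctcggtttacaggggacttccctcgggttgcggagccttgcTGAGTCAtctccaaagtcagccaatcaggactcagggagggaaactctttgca

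The 10 genes of smallest p in the higher direction included the signalling inhibitor gene Spry1, the EGR corepressor gene Nab2, the chemokine genes Ccl2 and Cxcl10 and Chrnd, a receptor subunit gene of the neuromuscular synapse. For all 10 the groups did not overlap, and DESeq2 and the authors' deposited table called them higher, again in the libraries that gave the p-values. Steap4 (ENSMUSG00000012428, chr5:7960457-7982213, + strand), a metalloreductase, was at 389, 329 and 259 CPM in FoscKO and at 71.4, 106 and 53 CPM in Control, a difference of 2.09 ± 0.30 (SE; edgeR adjusted p = 0.0801). Spry1 (ENSMUSG00000037211, chr3:37639947-37644598, + strand), an inhibitor of receptor tyrosine kinase signalling with a known part in the return of satellite cells to quiescence, was at 2425, 1231 and 1204 CPM in FoscKO and at 394, 338 and 369.6 CPM in Control. The difference was 2.14 ± 0.33 (SE; edgeR adjusted p = 0.0824), and 1.73 without FoscKO replicate 1, whose level was about that of the other FoscKO libraries summed.

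DESeq2 also called the transcriptional regulator genes Nab2, Egr3 and Bhlhe40 higher. Nab2, a corepressor of EGR proteins, was at 285, 122 and 166 CPM in FoscKO and at 52.8, 57.5 and 37.7 CPM in Control (1.95 ± 0.32, SE). Egr3, an immediate early zinc-finger gene, was at 71.5, 31.5 and 42.8 CPM in FoscKO and at 16.1, 11.1 and 8.06 CPM in Control (2.05 ± 0.38, SE). Bhlhe40, a bHLH repressor in the authors' deposited table, was at 2196, 727 and 1039 CPM in FoscKO and at 383, 366 and 359.6 CPM in Control. Its 3 Control libraries lay close together and its FoscKO libraries far apart, with a difference of 1.84 ± 0.37 (SE) that went to 1.26 without FoscKO replicate 1.

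A chemokine pair, a cytokine and an interferon-induced gene were also among these 10. Ccl2, the chemokine that draws monocytes, was at 1631, 918 and 643 CPM in FoscKO and at 341, 198 and 184 CPM in Control (2.14 ± 0.38, SE). Cxcl10, an interferon-induced chemokine, was at 220.4, 212 and 134 CPM in FoscKO and at 54.1, 53.2 and 78.5 CPM in Control (1.61 ± 0.28, SE). Lif, leukaemia inhibitory factor, was at 132, 94.1 and 64.1 CPM in FoscKO and at 35, 22.9 and 15.8 CPM in Control (1.98 ± 0.34, SE). The interferon-induced GTPase gene Gbp2 was at 155, 96.1 and 74 CPM in FoscKO and at 31.5, 25.3 and 44 CPM in Control (1.69 ± 0.32, SE).

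Chrnd encodes the delta subunit of the muscle acetylcholine receptor, and G0s2 an inhibitor of triglyceride lipase. Chrnd was at 37.4, 21.2 and 39.3 CPM in FoscKO and at 5.56, 9.89 and 5.97 CPM in Control (2.18 ± 0.39, SE), and G0s2 at 160.0, 67.7 and 112 CPM and 28.2, 34.7 and 37.1 CPM (1.76 ± 0.31, SE). FoscKO replicate 1 was the highest of the 3 FoscKO libraries for 9 of the 10 higher genes, all but Chrnd. Over the 10, differences ran from 1.61 to 2.18, and from 1.34 to 2.08 without FoscKO replicate 1, where edgeR called 8, all but Egr3 and Gbp2. In the authors' deposited table, the median difference of the 42 higher genes in the edgeR fit was 1.55, and 1.30 without FoscKO replicate 1, and that of the 27 lower genes was -1.60 and -1.66. FoscKO replicate 1 was the highest FoscKO library for 33 of the 42 and for 12 of the 27.

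**Figure D2:**
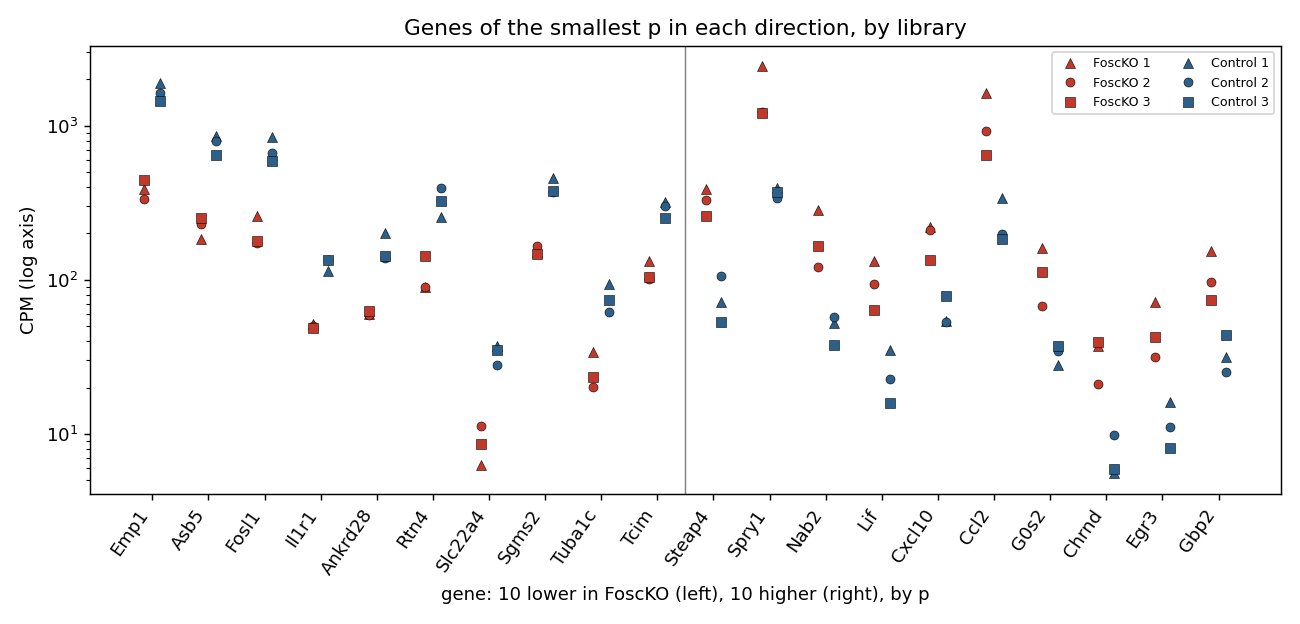
Level in CPM on a log axis (y axis) of the 10 genes of smallest p lower in FoscKO (left of the line) and the 10 higher (right), 1 point per library, red for FoscKO, blue for Control, with triangles, circles and squares for replicates 1, 2 and 3. The colours do not overlap for any of the 20 genes, and the red triangle, FoscKO replicate 1, is the highest red point for 9 of the 10 genes on the right.

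The series' other dataset sorted satellite cells of 4-month-old FosGFP mice, which carry a GFP reporter of Fos, into 4 FosGFP+ and 4 FosGFP- libraries with otherwise the same gate, and shares no library with the FoscKO comparison. There edgeR called 2125 genes higher in FosGFP+ (10.3% of 20698) and 383 lower (1.85%). All 10 lower genes of smallest p in FoscKO were called higher in FosGFP+. Emp1 was at 2081 ± 286 CPM in FosGFP+ and 567 ± 175 CPM in FosGFP- (SD, n = 4), a difference of 1.88 ± 0.22 (SE; edgeR adjusted p = 1.58e-04). Asb5 differed by 2.12 ± 0.19, Slc22a4 by 2.51 ± 0.30, Fosl1 by 1.93 ± 0.21 and Myod1 by 1.94 ± 0.21 (SE). Of the 34 genes that DESeq2 called lower in FoscKO, 26 (76.5%) were called higher in FosGFP+ and 0 lower, which is 1.22% of the FosGFP+ higher list. Of all genes in both fits, 10.7% were called higher in FosGFP+ and 1.88% lower.

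Genes higher in FoscKO lay on both sides of 0 in FosGFP+. Of the 59 that DESeq2 called higher, 16 (27.1%) were called higher in FosGFP+ and 5 (8.47%) lower, or 0.753% and 1.31% of the FosGFP lists, and of the 10 of smallest p, 3 were called higher, Steap4, Ccl2 and Gbp2. Spry1 was at 346 ± 99 CPM in FosGFP+ and 442 ± 109 CPM in FosGFP- (SD, n = 4), a difference of -0.36 ± 0.22 (SE; edgeR adjusted p = 0.327). Hmox1, the haem-degrading oxygenase, was higher in both comparisons, by 1.49 ± 0.34 in FoscKO, where DESeq2 and the authors' deposited table called it, and by 3.21 ± 0.28 in FosGFP+. Gas1, a growth-arrest gene called higher in FoscKO by DESeq2 and in the authors' deposited table (1.41 ± 0.37), was lower in FosGFP+, with a difference of -1.25 ± 0.25. Fos RNA itself differed by -1.25 ± 0.21 between FosGFP+ and FosGFP- cells, lower in FosGFP+. In that dataset the scaling matters. With total counts in place of TMM, 9 of the 10 lower genes and 23 of the 34 were still called higher in FosGFP+. Of both sets 0 were called lower. Of the 59 higher genes, 7 were then called higher and 12 lower. With that scaling, 1029 of all 19820 genes in both fits were called higher and 2057 lower. Ages, genotypes and count tables differ between the datasets, so sizes were not compared by a test.

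**Figure D3:**
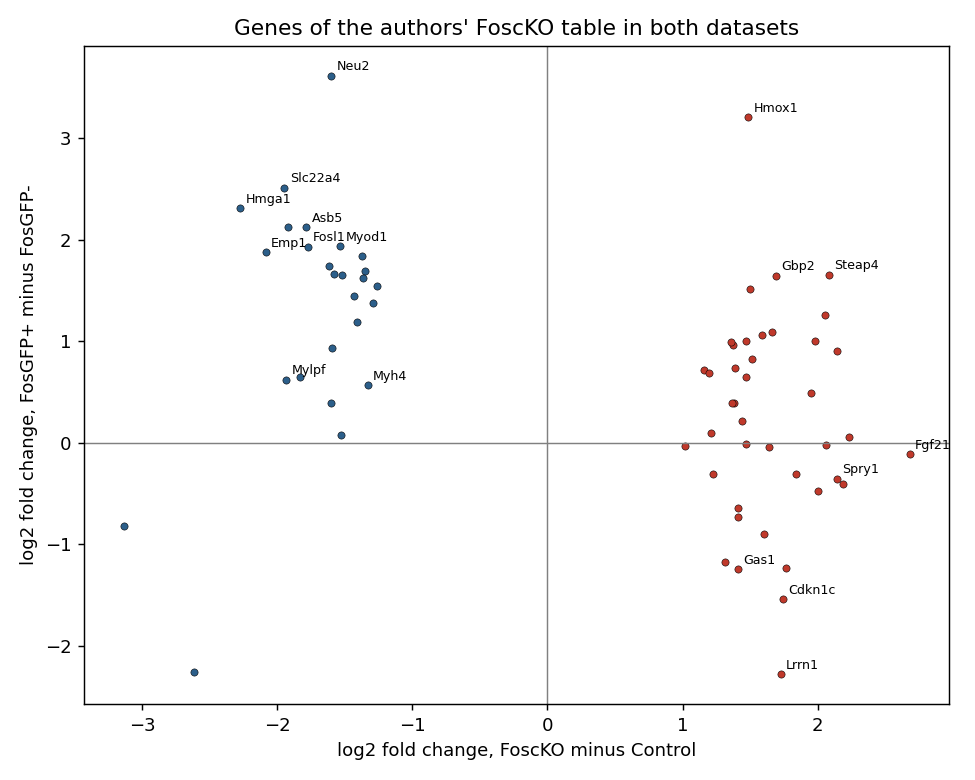
Log2 fold change of FoscKO minus Control (x axis) and of FosGFP+ minus FosGFP- (y axis) from separate edgeR fits, 1 point for each of the 67 genes of the authors' deposited FoscKO table that both fits tested, blue for lower and red for higher in FoscKO. Of the 26 blue points 24 lie above 0 on the y axis, and of the 41 red points 23 do.

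Gene lists were described by counts at an unadjusted edgeR p under 0.05 and by the median log2 difference of tested members, beside -0.04 for all genes and 0.08 for genes of at least 5 CPM, and no list was tested. A member is said to pass where its unadjusted p was under 0.05, and none passed at an adjusted p. Of all 21885 genes, 779 passed in the higher direction (3.56%) and 429 in the lower (1.96%), and 10368 lay above 0. Of the 13852 genes of at least 5 CPM, 747 passed higher and 265 lower, and 7946 lay above 0. Of these 13852, FoscKO replicate 1 held the highest level of 5119, FoscKO replicate 3 of 1791 and Control replicate 3 of 1823. Over all 21885 genes the counts were 5689, 2469 and 3647, in the same order. Without FoscKO replicate 1, 555 of 21724 genes passed higher and 558 lower. Without FoscKO replicate 3, 550 of 21646 passed higher and 431 lower. Total-count scaling shifted the median gene by -0.18, and with it the medians of 13 lists changed sign, all of them lists with medians between 0.04 and 0.23.

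Immediate early and stress genes lay mostly above 0 with all libraries, and their medians were smaller without FoscKO replicate 1. Of 42 immediate early genes, 15 passed in the higher direction and 1, Sgk1, in the lower. DESeq2 called 6 of them higher: Egr2 (1.32 ± 0.35, SE), Egr3, Ier3 (1.47 ± 0.36), Nr4a3 (1.38 ± 0.33), Btg2 (1.41 ± 0.34) and Rhob. Btg2, an antiproliferative gene, was at 7330.3, 3756 and 4094 CPM in FoscKO and at 1891, 1898 and 1927 CPM in Control. The list's median was 0.46 with all libraries and 0.15 without FoscKO replicate 1, which held the highest level of 33 of the 42. Without it 11 passed in the higher direction and 8 in the lower. The median was likewise smaller without that library for the 28 cytokine and NF-kB target genes (10 higher, 2 lower, 0.53 to 0.18) and the 21 heat shock chaperones (4 higher, 0 lower, 0.51 to 0.23). Of the chaperones, 4 also passed higher without FoscKO replicate 1, and 1 did without FoscKO replicate 3. For the 15 other bZIP partners of AP-1 the median changed sign without FoscKO replicate 1 (3 higher, 0 lower, 0.30 to -0.05), as for the 24 apoptosis and p53 target genes (3 higher, 0 lower, 0.31 to -0.02) and the 19 NRF2 and metallothionein genes (3 higher, 1 lower, 0.16 to -0.03). The share of reads in genes was also highest in FoscKO replicate 1, and its part in these medians was not tested.

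Feedback inhibitors of MAP kinase signalling lay on both sides of 0. Of 18 DUSP and Sprouty genes, 4 passed in the higher direction, among them Spry1, Dusp6 (1.17 ± 0.35, SE) and Dusp8 (0.69 ± 0.28), and 3 in the lower, among them Spry2. Spry2 was at 31.7, 20.1 and 27.3 CPM in FoscKO and at 48.2, 46 and 44.5 CPM in Control (-0.81 ± 0.28), so the paralogues Spry1 and Spry2 differed in sign. In that list only Spry1 was called by DESeq2. Of 43 growth factors and receptors, 3 passed in the higher direction and 2 in the lower, and DESeq2 called Gdnf, a neurotrophic factor gene, lower (-1.33 ± 0.31, SE), with no overlap between groups. Of 19 urokinase and matrix proteolysis genes, 2 passed in each direction. The inhibitor gene Timp3 was called higher by DESeq2 (0.89 ± 0.26, SE), and the urokinase receptor gene Plaur was at 210.1, 134 and 132 CPM in FoscKO and 298, 276 and 236 CPM in Control. Plat, the tissue plasminogen activator gene, differed by -0.83 ± 0.35 (SE) with all libraries and by -1.36 without FoscKO replicate 1, where edgeR called it.

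Lists of satellite cell state and myogenic progress had positive medians with all libraries. Of 26 satellite cell identity genes, 5 passed in the higher direction, among them Myf5 (1.13 ± 0.34, SE), Chrdl2 (0.92 ± 0.32) and the Notch target Heyl, and 1 in the lower, the FGF receptor gene Fgfr1 (-0.86 ± 0.28). Heyl was at 1733, 709 and 931 CPM in FoscKO and at 375, 461 and 432 CPM in Control and was called higher by DESeq2 (1.41 ± 0.34). This list depended on FoscKO replicate 1, which held the highest level of 16 of the 26: without it the median went from 0.34 to 0.09, and 3 passed in the higher direction and 5 in the lower. Myf5 then differed by 0.65 and Chrdl2 by 0.54. Of 27 quiescence and Notch genes, 7 passed in the higher direction and 1, the pericyte gene Rgs5, in the lower. DESeq2 called 4 of them: Heyl, Spry1, Gas1 and Cdkn1c, an imprinted cell cycle inhibitor. Cdkn1c was at 439.9, 172 and 753 CPM in FoscKO and at 148, 168 and 92.2 CPM in Control, with FoscKO replicate 2 next to the Control libraries. The list's median was 0.32, and 0.25 without FoscKO replicate 1.

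Of 23 myogenic commitment and fusion genes, 7 passed in the higher direction and 2, Myod1 and Ckm, in the lower, with a median of 0.39. FoscKO replicate 3 held the highest level of 12 of the 23, and without it 3 passed in the higher direction and 2 in the lower, with a median of 0.26. Of the 11 acetylcholine receptor and postsynaptic genes 4 passed in the higher direction, led by Chrnd, and the median was 0.46, and 0.51 without FoscKO replicate 1. FoscKO replicate 3 was highest for 7 of these 11, and without it 1 passed and the median was 0.15. Chrng, the fetal receptor subunit gene, was at 6.55, 3.87 and 20.8 CPM in FoscKO and 3.15, 2.94 and 5.16 CPM in Control, with FoscKO replicate 3 far above the rest. Of 36 cell cycle genes, 5 passed in the higher direction, Ccnd3 (0.83 ± 0.26) and Mcm4 (0.76 ± 0.25) among them, and 1 in the lower, with a median of 0.17. FoscKO replicate 3 was highest for 19 of the 36, and without it 2 passed in each direction and the median was -0.20. Of 17 imprinted growth genes, 5 passed in the higher direction and none in the lower, Mest at 109, 157 and 136 CPM in FoscKO and 69.9, 62.3 and 65.8 CPM in Control. DESeq2 called Mest and Cdkn1c of these 17, and Mest was also called without FoscKO replicate 1.

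Metabolic, interferon and matrix lists differed in how many genes passed, beside 3.56% of all genes in the higher direction and 1.96% in the lower. Of 23 glycolysis genes, 4 passed in the lower direction, Hk2, Eno3, Pgam2 and Pfkm, and none in the higher. Eno3, Pgam2 and Pfkm encode the forms of their enzymes abundant in muscle fibres. Eno3 was at 116, 29 and 68.5 CPM in FoscKO and at 131, 108 and 225 CPM in Control, highest in Control replicate 3, as Pgam2 was (22.6, 6.27 and 15.8 and 27.4, 22.7 and 49.8 CPM). The summed mature fibre markers were highest in that library too, at 5123 CPM, and their part in these differences was not tested. Hk2, hexokinase, was at 106, 41.1 and 66.6 CPM in FoscKO and at 173, 134 and 126 CPM in Control, and edgeR called it without FoscKO replicate 1 (-1.42, against -1.02 ± 0.32 with all libraries, SE). Of 48 nuclear oxidative phosphorylation genes 46 lay above 0, with a median of 0.26 that went to 0.08 without FoscKO replicate 1, and 1 passed. Of the 7 mitochondrially encoded genes none passed. Of 30 ribosome biogenesis genes, 1 passed in the higher and 2 in the lower direction (median -0.16, and -0.32 without FoscKO replicate 1). Of 36 genes of ADP-ribosyltransferases and NAD metabolism, 2 passed in each direction. The counts were 5 higher and 0 lower of 29 interferon response genes (median 0.40, and 0.35 without FoscKO replicate 1). They were 3 and 1 of 33 niche matrix and adhesion genes, 2 and 1 of 31 SRF and actin genes, and 1 and 0 of 16 HOX and limb position genes. The hyaluronan receptor gene Cd44, in the lower direction, was at 195, 161 and 213 CPM in FoscKO and 367, 326 and 408 CPM in Control.

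**Figure D4:**
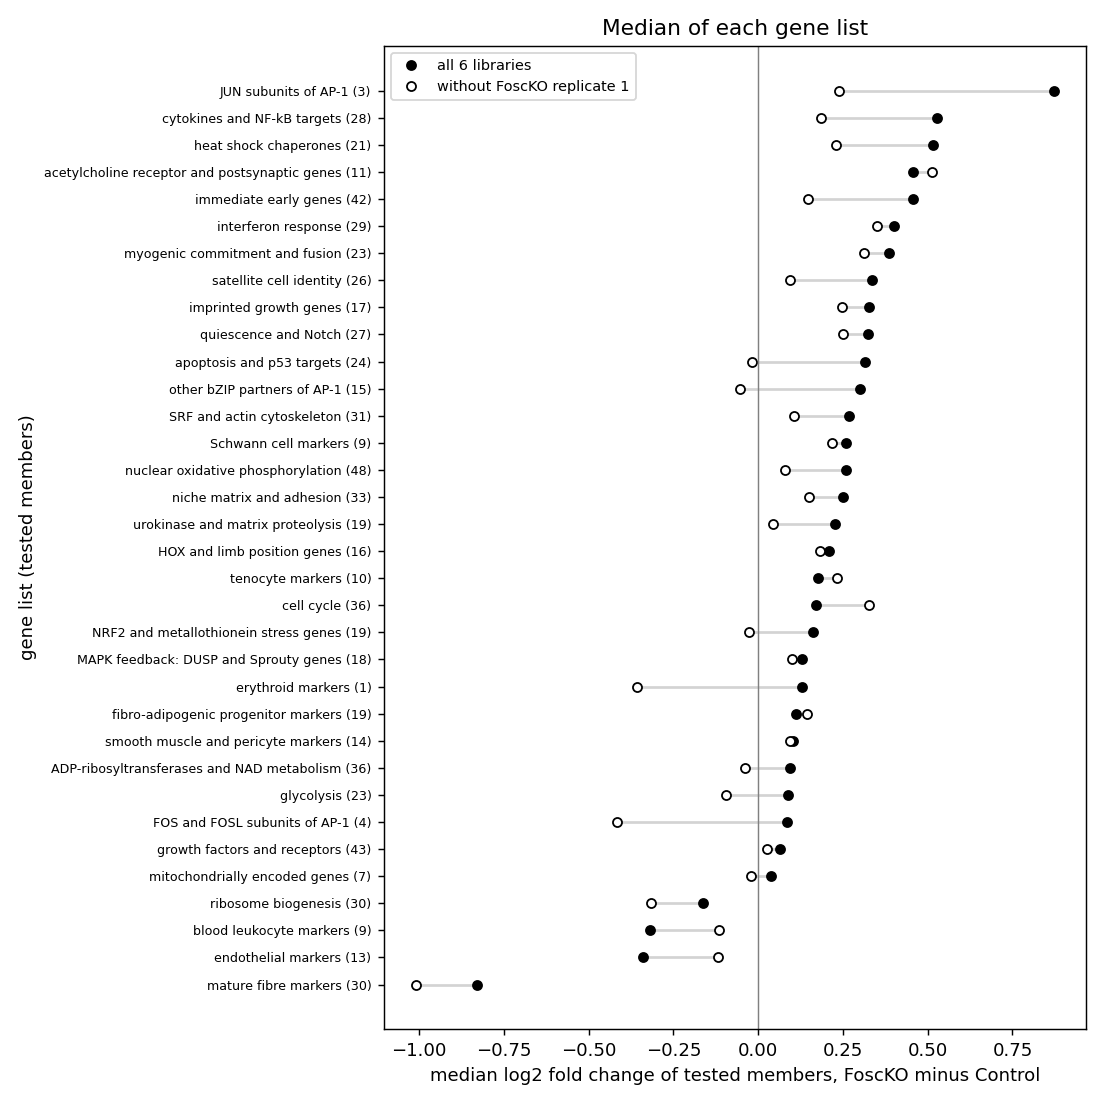
Median log2 fold change of FoscKO minus Control (x axis) for each gene list (y axis, with its number of tested members), filled points for all 6 libraries and open points without FoscKO replicate 1. JUN genes go from 0.87 to 0.24 and immediate early genes from 0.46 to 0.15, while mature fibre markers lie at -0.83 and -1.01.

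Markers of mature muscle fibres were the list with the lowest median. Of 30 tested, 12 passed in the lower direction and none in the higher, 2 lay above 0, and the median was -0.83. The summed level was 2921, 1327 and 2463 CPM in FoscKO and 3411, 2663 and 5123 CPM in Control, so the groups overlapped, and Control replicate 3 held the highest level of 17 of the 30. Without that library the median was -0.53, without FoscKO replicate 2 it was -0.72, and without FoscKO replicate 1 it was -1.01. DESeq2 called 2 of the 30 lower. Myh4, a fast myosin heavy chain, was at 36.1, 27.7 and 26.4 CPM in FoscKO and at 88.8, 67.6 and 70.6 CPM in Control, with Control replicate 3 not the highest (-1.33 ± 0.26, SE). Mylpf, a fast myosin light chain, was at 19.8, 10.7 and 13 CPM in FoscKO and at 33, 40.1 and 93.4 CPM in Control (-1.93 ± 0.40, SE). Both are in the authors' deposited table, as are the sarcomere genes Tcap and Flnc. In bulk libraries, fewer cells of a type and less RNA per cell cannot be told apart, and the part of fibre RNA in the other lower genes was not tested.

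Marker lists of other cell types differed in level and in direction. Of 13 endothelial markers tested, 1, Pecam1, passed in the lower direction and 2 lay above 0, and their sum was 256, 315 and 266 CPM in FoscKO and 241, 295 and 298 CPM in Control. Of 9 leukocyte markers none passed, and their sum was 51.2, 92.4 and 74.5 CPM in FoscKO and 60.1, 77.8 and 85.5 CPM in Control. Of the erythroid markers Hba-a1 and Hba-a2 were at 0 in all 6 libraries and 1, Alas2, was tested. Of 19 markers of fibro-adipogenic progenitors 2 passed in the higher direction, Dcn and Dpt, and 1 in the lower, Pdgfra, their defining receptor. Pdgfra was at 7.75, 7.19 and 9.64 CPM in FoscKO and 12.4, 16.8 and 21.4 CPM in Control. Dcn was at 77.8, 160.3 and 66.3 CPM in FoscKO and 24.5, 38.2 and 90.9 CPM in Control. Dpt was at 206, 131 and 130 CPM in FoscKO and 99.2, 116 and 99.2 CPM in Control. Of the 19, 11 lay above 0, with a median of 0.11. The summed level of the 19 was 10330, 5723 and 10260 CPM in FoscKO and 6950, 8134 and 6494 CPM in Control, which overlapped. Most of this sum came from other members, as Pdgfra, Dcn and Dpt were each at most 206 CPM in any library. Of 14 smooth muscle and pericyte markers, 3 passed in the higher direction, Steap4, Acta2 and Mcam, and 1, Rgs5, in the lower. Their sum was 4671, 2468 and 3620.0 CPM in FoscKO and 2801, 2078 and 1738 CPM in Control, which overlapped. Steap4 is thus a marker of that list as well as the higher gene of smallest p, while Rgs5, a defining pericyte marker, was at 4.28, 10.3 and 17.6 CPM in FoscKO and 9.82, 55.9 and 16.1 CPM in Control. The part of such cells in the difference of Steap4 was not tested.

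Of 9 Schwann cell markers 1 passed in the higher direction. Of 10 tenocyte markers, 2 passed in the higher direction, Chodl and Egr2, and 1, Col12a1, in the lower. The tenocyte sum was 3860.0, 2077 and 2289 CPM in FoscKO and 1425, 1550.0 and 1460.0 CPM in Control, without overlap. It is made largely of Egr2 and Chodl, which stood at 2230.3, 863 and 1078 CPM and 1546, 1121 and 1123 CPM in FoscKO and at 573, 579 and 518 CPM and 746, 877 and 819.8 CPM in Control. Egr2 is also on the list of immediate early genes.

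**Figure D5:**
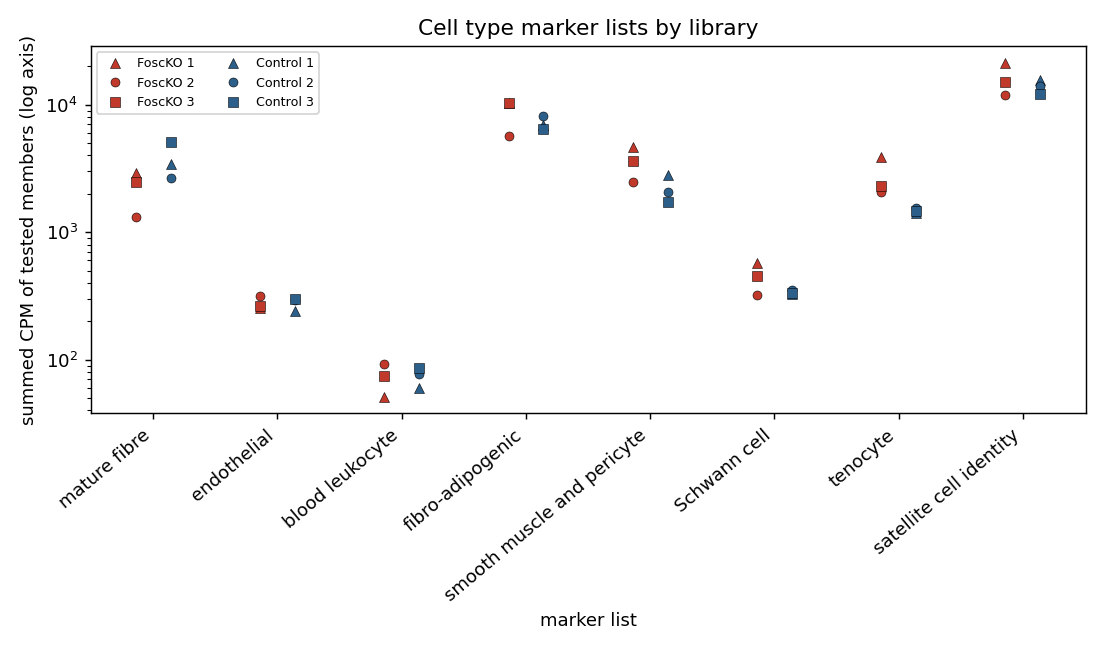
Summed CPM of the tested members of each cell type marker list (x axis) on a log axis (y axis), 1 point per library, red for FoscKO, blue for Control, with triangles, circles and squares for replicates 1, 2 and 3. The mature fibre sum is highest in Control replicate 3 (5123 CPM) and lowest in FoscKO replicate 2 (1327 CPM), and leukocyte sums lie between 51.2 and 92.4 CPM.

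A few genes were close to absent from FoscKO, by a rule chosen after values were seen. With at most 3 counts in FoscKO in all and at least 10 in every Control library there were 6 genes, and 0 the other way. Dusp9, a MAP kinase phosphatase, had 0, 0 and 1 counts in FoscKO replicates 1, 2 and 3 and 31, 17 and 36 in Control. Gper1, a membrane oestrogen receptor, had 0 counts in every FoscKO library and 16, 12 and 16 in Control. Gm13418 had 0 counts in FoscKO and 43 in Control, and the chemokine receptor gene Ccr7 had 2 and 45. The galactosyltransferase gene B3galt4 had 3 and 49 and D630029K05Rik 3 and 42. The rule itself sets the gap between the groups, so no ratio or interval is given. None of the 6 passed the adjusted threshold of the edgeR test with all libraries.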

How the data were processed

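RNA of sorted satellite cells was made into cDNA with the Smart-Seq v4 kit and tagged with Nextera XT, which marks no strand, per the labels' protocols, so overlapping and antisense genes cannot be told apart. Per the submitters' processing notes, GRCm38, STAR 2.5.0c, HTSeq 0.6.1, DESeq2 1.20.0 and limma were used; their settings are not given in the sources used here. The deposited counts are whole reads per gene for 49671 genes, of which 49412 identifiers matched GENCODE M21, whose coordinates are printed. The 5 lines that name no gene took 69.8% to 84.1% of reads and were left out. The authors' deposited table gives log2 fold changes as Control over FoscKO, turned here to FoscKO over Control, with p-values, for 69 genes; 14 columns of per-library values in such tables were not used.

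Genes were kept by filterByExpr, scaled by TMM and tested with the edgeR 4.0.16 quasi-likelihood test (robust, two-sided, no covariate, R 4.3.3), with Benjamini-Hochberg adjusted p under 0.05. DESeq2 1.42.0, limma 3.58.1 voom, other filters and scalings, a replicate block and leaving out each library were alternatives. SE is the size of the log2 fold change over the root of F. Tests were checked on simulated data. No gene passed edgeR, so the rule for naming genes took the 10 smallest p per direction with a mean of at least 5 CPM, Fos, up to 4 members of each of 34 lists and the 10 smallest adjusted p per direction of the authors' table. The named genes and lists were chosen with earlier results of these data known.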

Additional observations from a re-analysis of the deposited data

How the results depend on the processing

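No edgeR call was made with DESeq2 size factors or without the 20 most abundant genes in the library sizes. Calls appeared, higher and lower in that order, with no filter (85 and 46), a filter at 5 CPM (15 and 20), DESeq2 (59 and 34) and limma-voom (3 and 3). Total counts (12 and 34) and limma-voom with quality weights (118 and 83) were chosen after seeing the data. Leaving out 1 library gave 0 to 16 higher and 0 to 27 lower calls, the highest without FoscKO replicate 1 and 0 without any other library. The cause of these differences was not tested. The labels do not say that replicate numbers pair the libraries. Same-numbered deviations correlated at 0.206, 0.0255 and -0.0391, and differently numbered ones at -0.23 to 0.2175, which does not settle whether they do. With the replicate block there were 23 higher and 20 lower calls.

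The Fos difference turned negative with a filter at 5 CPM (-0.11), limma-voom (-0.13), the replicate block (-0.13), total counts (-0.28) and quality weights (-0.35), and ran from -0.56 to 0.33 when 1 library was left out. That of Fosb turned negative with total counts (-0.13), with quality weights (-0.14) and without FoscKO replicate 1 (-0.27), with a range of -0.27 to 0.34 when 1 library was left out. Alas2 turned negative with total counts (-0.16), with quality weights (-0.41) and without FoscKO replicate 1 (-0.36), Control replicate 1 (-0.08) or Control replicate 2 (-0.13), with a range of -0.36 to 0.78 when 1 library was left out. Without FoscKO replicate 2, Ptprc turned negative (-0.046) and Pax7 positive (0.12), and with 1 library left out Ptprc ran from -0.046 to 0.46 and Pax7 from -0.42 to 0.12. Of 1313 values for 88 of the tested genes other than Fos that the text names, under up to 15 alternatives, these 10 changed sign, 1018 stayed on the same side of the threshold and 285 passed it. In FosGFP, total counts gave 1029 higher and 2087 lower calls, DESeq2 648 lower, a 5 CPM filter 588 lower and leaving out 1 library 1689 to 2202 higher and 183 to 364 lower. The difference in reads in genes was 1.10 to 8.26 percentage points when 1 library was left out. With 3 libraries a group, the spread between libraries limits what can be called.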

Other observations

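Gal and Sgk1 lay outside the rule for naming genes and were picked after their values were seen. Gal, a neuropeptide, was at 2307, 990.3 and 1446 CPM in FoscKO and at 2754, 2413 and 2321 CPM in Control, which did not overlap, and the log2 difference was -0.66 ± 0.34 (SE), or -1.03 without FoscKO replicate 1. Sgk1, a kinase, was at 1429.8, 709 and 939 CPM in FoscKO and at 2079, 1920.3 and 1547 CPM in Control, also without overlap (-0.85 ± 0.32, SE). The NRF2 target Srxn1 was at 866, 733 and 597 CPM in FoscKO and at 1263, 1240.0 and 1204 CPM in Control, while Hmox1, another gene of that list, was higher in every FoscKO library. In FosGFP+ cells all 4 were called higher by edgeR: Gal by 2.03 ± 0.19, Sgk1 by 1.13 ± 0.17, Srxn1 by 2.65 ± 0.21 and Hmox1 by 3.21 ± 0.28 (SE). None of the 4 passed an edgeR adjusted p in FoscKO with all libraries.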
